A study of Mus musculus with 26 samples.

Results

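Expression of 56 genes that build and run the vesicle traffic between the endoplasmic reticulum (ER) and the Golgi was followed in the mouse choroid plexus (ChP), the secretory epithelium in the brain ventricles that makes cerebrospinal fluid. The genes were listed by name and function, with earlier results of these data known. They encode the COPII and COPI coats, the small GTPases that load and unload them, and p24 proteins. The rest encode cargo and retrieval receptors, and the tethers and SNAREs at which the carriers fuse. They were 56 of the 55416 genes in the count table, and all 56 passed the minimum level (a mean of 1 CPM, counts scaled to library size, in each group), which left 13697 genes for testing.

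Proteins made in the ER leave it in COPII vesicles. The GTPase Sar1 recruits the inner coat of Sec23 and Sec24, which binds the cargo, and the outer coat of Sec13 and Sec31 then bends the membrane. COPI vesicles, whose coatomer is recruited by Arf1, run the other way and return escaped ER residents, which KDEL receptors recognise by a short tail signal. A secretory epithelium such as the ChP, which releases large amounts of transthyretin, depends on this cycle.

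ChP of the 4th ventricle came from adult male C57Bl6J mice. Sham surgery was given to 12 mice (Ctrl), and the suprachiasmatic nuclei, the central clock, were lesioned in 12 (SCNx). After release into constant darkness 1 mouse per group was killed every 4 h, from circadian time (CT) 0 to CT44. Each time point is thus 1 mouse, and p-values measure the spread between mice around the fitted curve or group mean. Around a group mean, with times pooled, that spread also includes change with the time of day. Another 2 adult male mice (KO) were FoxJ1-ERT2-Cre+/-; Bmal1fl/fl, were fed tamoxifen, and were killed under a light-dark cycle at Zeitgeber time (ZT) 7 and ZT18. In that line the Foxj1 promoter, active in ciliated epithelium, drives an inducible Cre that deletes the clock gene Bmal1 (Arntl) in the cells that express it. Controls of the same genotype without recombination were not analysed here. KO tissue was frozen, cut and captured with a laser, and its RNA went through a kit for low input, so KO levels and Ctrl levels differ in method as well as in genotype.

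The Ctrl and SCNx libraries held 38751162 to 49527614 estimated counts, and the KO libraries 17425176 and 18059213. The epithelial marker Ttr averaged 89221 CPM in Ctrl, the highest mean of all genes tested. Markers of other tissues stood out in some libraries. The summed level of 10 hepatocyte markers was 2357 CPM in Ctrl CT16 and 11604 CPM in SCNx CT0, against medians of 1.87 CPM in Ctrl and 3.21 CPM in SCNx. The sum of 9 neuronal markers reached 330 CPM in Ctrl CT4 and 348 CPM in SCNx CT32, against medians of 17.4 and 15.8 CPM. In SCNx CT32 the sum of 10 epithelial markers was also the lowest of all 24 libraries, 108484 CPM against medians of 164365 CPM in Ctrl and 152088 CPM in SCNx. Several results below are given both with these libraries and without some of them. In bulk tissue fewer cells of a type and less RNA per cell cannot be told apart.

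Levels of the 56 genes in Ctrl ran from 6.13 ± 0.398 CPM (SD, n = 12) for Kdelr3 to 431 ± 19.3 CPM (SD, n = 12) for Tmed10. Divided by the exon length of each gene, the highest were Tmed10 at 269 CPM per kb, Ergic3 at 124 CPM per kb and Tmed2 at 98.2 CPM per kb. Tmed10 and Tmed2 are p24 proteins that cycle between ER and Golgi with the carriers, and Ergic3 is a cargo receptor. On the same scale per length the lowest were Tmed5 at 3.36 CPM per kb, the KDEL receptor Kdelr3 at 4.35 CPM per kb and the inner coat gene Sec24a at 6.92 CPM per kb. Lengths came from GENCODE vM21, another annotation than that of the counts, so these levels per length are approximate.

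The first question was which of these genes cycled over 24 h in the ChP of Ctrl mice. A 24 h rhythm passed the test for 5 of the 56 genes (8.93%), against 10.7% of all genes tested (quasi-likelihood F test of edgeR, Benjamini-Hochberg adjusted over all genes, threshold 0.05). The 5 were Preb, Lman2, Copg2, Uso1 and Bet1. Of the 56 genes 10 had an unadjusted p under 0.05, or 17.9%, and the share over all genes was 24.8%. Amplitudes were small: the median log2 amplitude in Ctrl, the height of the fitted curve over its mean, was 0.055 for the 56 genes and 0.11 for all genes tested. The 56 genes were also more abundant, at a median of 97.3 CPM in Ctrl against 20.5 CPM for all genes tested. Genes of like level were not compared. The rank test used in an alternative called 3 of the 56 at Q under 0.05, against 6.74% of all genes.

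Preb was the one rhythmic gene among the 16 for the COPII coat and its assembly. It encodes the ER membrane protein that loads Sar1 with GTP and so starts the coat. Its level in Ctrl was lowest at 41.7 CPM (CT8), had a median of 49.4 CPM and was highest at 55.7 CPM (CT44). The second trough, 42.5 CPM, fell at CT32, and both cycles peaked in the subjective night. The log2 amplitude was 0.19 ± 0.017 (SE, n = 12), with a fitted peak at 19.0 h, a peak 1.31 times the trough and an adjusted p of 0.000146 in edgeR's test. On the opposite strand, exons of Preb overlap those of Abhd1, which was itself at 1.42 CPM and had an adjusted p of 0.971 for a rhythm in the same edgeR fit.

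The other 15 COPII genes did not pass. Their log2 amplitudes in Ctrl lay between 0.0088 for the GTPase Sar1a and 0.10 for the cargo-binding coat gene Sec24d. The nearest to the threshold was Sec24c, with an amplitude of 0.093 ± 0.023 (SE, n = 12) and an adjusted p of 0.119 in the edgeR fit. The remaining genes of this group were the second GTPase Sar1b, the exit site organisers Sec16a and Tfg, the inner coat genes Sec23a, Sec23b, Sec24a and Sec24b, the outer coat genes Sec13 and Sec31a, Sec23ip, and Mia2 and Mia3, which help to load bulky cargo such as collagens.

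In the COPI coat, 1 of 9 genes was rhythmic. Copg2, one of the paired gamma subunits of coatomer, ranged in Ctrl from 66.5 CPM (CT44) over a median of 78.3 CPM to 91.1 CPM (CT32). Its high values fell in the subjective day, at CT8 and CT32, and its low values at CT20 and CT44, opposite in time to Preb. The log2 amplitude was 0.16 ± 0.028 (SE, n = 12), with a fitted peak at 9.24 h and an adjusted p of 0.0085 in edgeR's test. The other gamma subunit, Copg1, was more abundant, at 170 CPM, and nearly flat, with an amplitude of 0.019 ± 0.022 (SE, n = 12). The exons of Copg2 overlap those of Mest on the opposite strand. Mest stood at 239 CPM in Ctrl and had an adjusted p of 0.817 for a rhythm in the same edgeR fit. Whether the counting used the strand is not given in the sources used here, and the part of Mest reads in the Copg2 value was not tested.

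Amplitudes of Copa, Copb1, Copb2, Cope, Copz1, Copz2 and Arcn1, the other coatomer subunits, lay between 0.012 for Arcn1 and 0.082 for Copz1, and none passed. Nor did any of the 6 genes of the ARF cycle pass: Arf1 and Arf4, the exchange factor Gbf1 and the 3 GTPase-activating proteins Arfgap1, Arfgap2 and Arfgap3. Their amplitudes in Ctrl lay between 0.020 for Arf1 and 0.092 for Arfgap3, which had the smallest adjusted p of the group, 0.28 in the edgeR fit.

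Of the 8 p24 genes, Tmed1, Tmed2, Tmed3, Tmed4, Tmed5, Tmed7, Tmed9 and Tmed10, none was called rhythmic in Ctrl. Tmed2 came nearest, with an amplitude of 0.092 ± 0.018 (SE, n = 12) and an adjusted p of 0.09 in the edgeR fit. Tmed10, the most abundant gene of all 56, had an amplitude of 0.012 ± 0.029 (SE, n = 12).

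Among the 10 cargo and retrieval receptors Lman2 was rhythmic. It encodes VIP36, a lectin that binds glycoproteins with high-mannose sugars on their way through the early secretory pathway. Its level in Ctrl was lowest at 174.8 CPM (CT12), had a median of 217 CPM and was highest at 259 CPM (CT20). In the second cycle it stood at 183 CPM at CT36 and at 256 CPM at CT44, so that the swing recurred. The log2 amplitude of 0.26 ± 0.034 (SE, n = 12) was the largest of the 56 genes, with a fitted peak at 20.8 h and a peak 1.43 times the trough. Its adjusted p in edgeR's test was 9.28e-05.

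Surf4, a receptor for soluble secreted cargo, peaked at about the same time, 20.9 h, with an amplitude of 0.12 ± 0.032 (SE, n = 12), but missed the threshold (adjusted p of 0.0916, edgeR). Lman1 and Mcfd2, which together carry coagulation factors, had amplitudes of 0.10 ± 0.045 and 0.093 ± 0.027 (SE, n = 12) and adjusted p-values of 0.183 and 0.231 in the edgeR fit. Ergic1, Ergic2 and Ergic3, which form receptor complexes in the intermediate compartment, stayed between 0.017 and 0.028. The KDEL receptors had amplitudes of 0.055 ± 0.032 for Kdelr1, 0.035 ± 0.042 for Kdelr2 and 0.039 ± 0.040 for Kdelr3 (SE, n = 12), and none passed.

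In the group of 7 tethers and SNAREs 2 genes were rhythmic. Uso1 encodes p115, the long tether that catches COPII vesicles. It ranged in Ctrl from 179 CPM (CT12) over a median of 209 CPM to 233 CPM (CT44), with an amplitude of 0.14 ± 0.031 (SE, n = 12), a fitted peak at 20.1 h and an adjusted p of 0.0397 in the edgeR fit. Bet1, a SNARE of the same fusion step, ranged from 20.3 CPM (CT12) over 26.3 CPM to 29.4 CPM (CT44), with an amplitude of 0.17 ± 0.051 (SE, n = 12), a fitted peak at 21.8 h and an adjusted p of 0.0477 in the edgeR fit. Both genes were low at CT8 and CT12 and again at CT36, and high at CT40 and CT44. Golga2, Gorasp2, Sec22b, Stx5a and Yipf5 did not pass, with amplitudes between 0.029 for Golga2 and 0.10 for Yipf5.

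The calls differed in how firmly they held. Preb and Lman2 were called in all 34 other fits, and Copg2 in all but the fit without a minimum level. Uso1 lost its call in 7 of the 34, among them those without Ctrl CT8, CT16, CT20, CT36 or CT44, with adjusted p-values up to 0.204 over the edgeR and other fits. Bet1 lost it in 18, with adjusted p-values from 0.0118 to 0.149. Without SCNx CT32 the joint fit also called Surf4 and Tmed2 in Ctrl, 7 genes in all. Without Ctrl CT8, CT20, CT36 or CT44 it called 3.

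**Figure D1:**
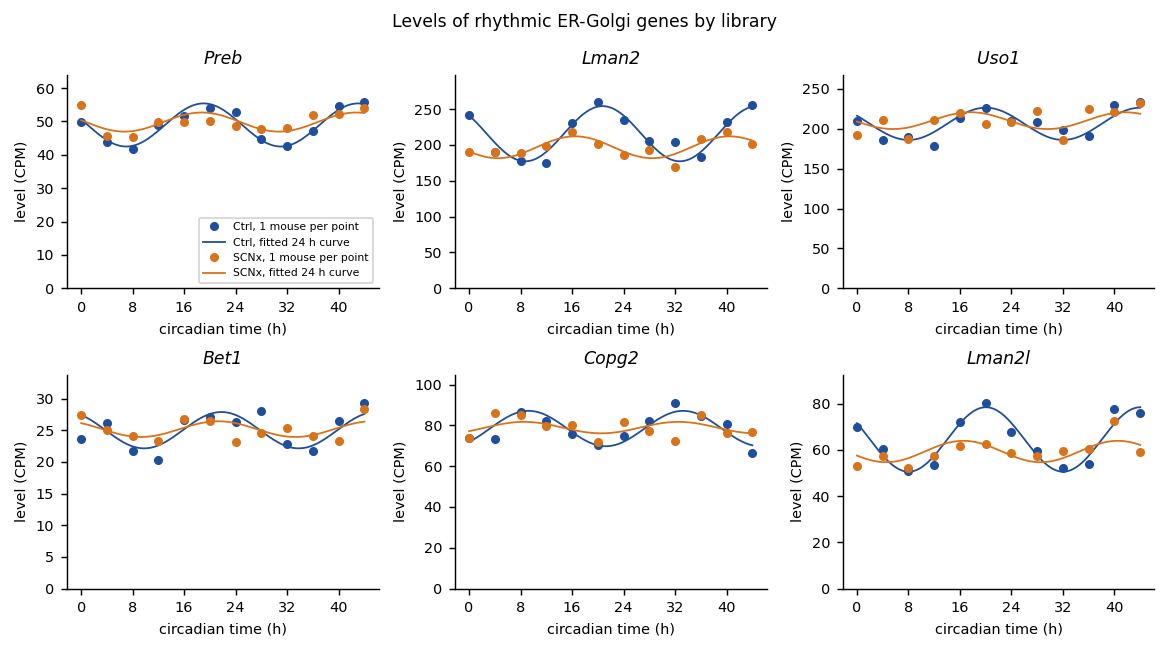
Level in CPM (vertical axes, from 0) against circadian time in h for the 5 rhythmic genes and for Lman2l, a relative of Lman2 outside the 56. Each point is 1 mouse, blue for Ctrl and orange for SCNx, and lines are 24 h curves fitted by least squares to the plotted values. Lman2 in Ctrl swings between 174.8 and 259 CPM and in SCNx between 168.5 and 218.5 CPM, and Copg2 runs opposite in time to the other genes.

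**Figure D2:**
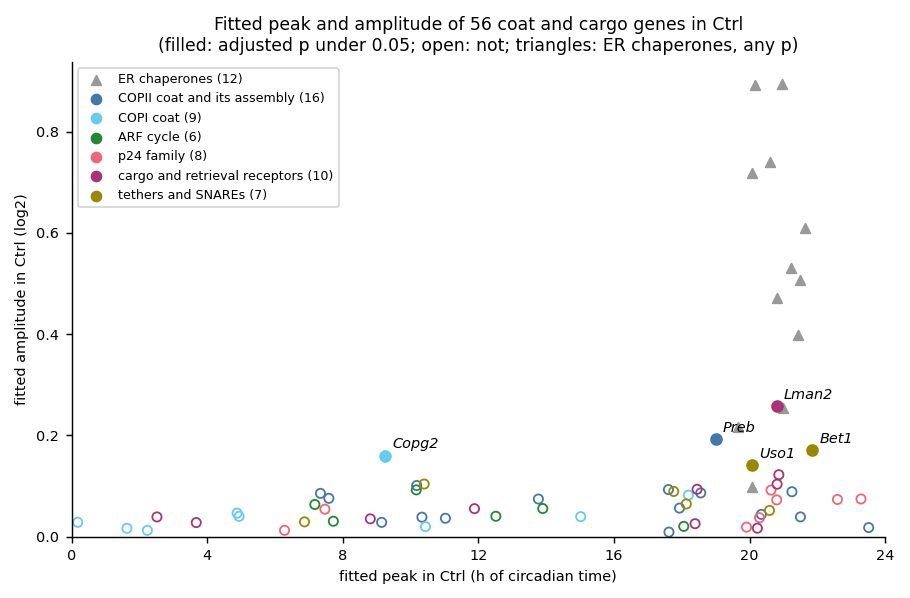
Fitted peak time in Ctrl (horizontal axis, h) against fitted log2 amplitude in Ctrl (vertical axis) for the 56 genes, coloured by role, with filled circles for an adjusted p under 0.05 and open circles for the rest. Grey triangles are 12 ER chaperones, most of which lie far above the 56 genes, whose highest point is Lman2 at 0.26.

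Genes for proteins that work inside the ER gave another picture. Of 12 ER chaperones and folding enzymes, several of which carry the tail that KDEL receptors recognise, 11 were rhythmic in Ctrl by the same edgeR test, with a median log2 amplitude of 0.52. P4hb was the exception, at 0.098 ± 0.049 (SE, n = 12) with an adjusted p of 0.507. The chaperone Hspa5 (BiP) peaked at 20.6 h with an amplitude of 0.74 ± 0.11 (SE, n = 12) and an adjusted p of 0.000392 in the edgeR fit. Xbp1, a transcription factor that drives genes of the secretory pathway, peaked at 19.5 h with an amplitude of 0.59 ± 0.052 (SE, n = 12) and an adjusted p of 2.44e-06 in the edgeR fit. Atf6 and Atf4, regulators of the same stress response, had amplitudes of 0.030 ± 0.040 and 0.10 ± 0.036 (SE, n = 12) and did not pass. The fitted peaks of Preb, Uso1, Lman2 and Bet1, from 19.0 to 21.8 h, thus fell within the hours at which the chaperones peaked, from 19.7 to 21.6 h, or next to them.

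Promoters were compared because Preb, Uso1, Lman2 and Bet1 peaked together with the chaperones. RefSeq (GRCm38.p6) held a promoter for 50 of the 56 genes, and none was matched for Arcn1, Tmed2, Tmed7, Lman1, Kdelr2 and Yipf5. For 40 of the 50 the start lay in a GENCODE vM21 transcript, and the starts of the rest were not checked further. The 250 bases before the start were searched on both strands. The ER stress element ERSE, which is CCAAT and CCACG with 9 bases of any kind between them and is bound by ATF6 in chaperone promoters, was found in 0 of the 50 promoters, in 5 of the 10 chaperone promoters given (Calr, Dnajc3, Hsp90b1, Hspa5 and Pdia6) and in 0.162% of the 10495 promoters of all genes tested. ERSE-II, in which ATTGG and CCACG stand 1 base apart, was found in 0 of the 50 promoters and in 0.0572% of all. The core TGACGTG, bound by XBP1, occurred in 5 of the 50 (Copb1, Gbf1, Kdelr3, Mia3 and Sec24d), or 10%, against 2.23% of all promoters, and none of these 5 genes was rhythmic. The E-box CACGTG of the clock proteins occurred in 5 of the 50 (Mcfd2, Sar1a, Sec23ip, Tmed10 and Uso1), or 10%, against 8.21% of all. The cyclic AMP element TGACGTCA was found in Cope only (2.73% of all promoters) and the D-box TTATGTAA in none (0.467% of all). A match is a description of letters and not a binding site.

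The promoters of the 5 rhythmic genes follow, 5′ to 3′ up to the last base before the start, with that of Hspa5 as the contrast that holds both ER stress motifs. Capitals mark the E-box in Uso1, which lies from -225 to -220 before the start, and in Hspa5 TGACGTG from -157 to -151 and then the ends of ERSE from -65 to -47. The other 4 promoters held none of the full motifs searched. Those of Lman2 and Preb held both CCAAT and CCACG on either strand, without the spacing of ERSE. Both occurred in 11 of the 50 promoters (22%), in 7 of the 10 chaperone promoters and in 14.8% of all. Coordinates are those of GRCm38: Preb chr5:30960328-30960577 on the minus strand, Lman2 chr13:55362784-55363033 on the minus strand, Copg2 chr6:30896795-30897044 on the minus strand, Uso1 chr5:92137688-92137937 on the plus strand, Bet1 chr6:4086931-4087180 on the minus strand and Hspa5 chr2:34771840-34772089 on the plus strand.
Preb: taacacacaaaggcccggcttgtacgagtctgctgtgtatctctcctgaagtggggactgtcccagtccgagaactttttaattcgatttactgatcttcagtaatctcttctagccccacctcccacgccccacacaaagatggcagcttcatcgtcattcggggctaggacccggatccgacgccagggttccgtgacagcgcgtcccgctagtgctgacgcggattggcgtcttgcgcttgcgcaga
Lman2: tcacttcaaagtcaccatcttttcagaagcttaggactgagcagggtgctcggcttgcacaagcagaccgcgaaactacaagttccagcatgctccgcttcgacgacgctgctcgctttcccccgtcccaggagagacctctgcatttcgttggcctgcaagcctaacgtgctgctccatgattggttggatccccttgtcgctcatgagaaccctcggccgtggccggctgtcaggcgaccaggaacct
Copg2: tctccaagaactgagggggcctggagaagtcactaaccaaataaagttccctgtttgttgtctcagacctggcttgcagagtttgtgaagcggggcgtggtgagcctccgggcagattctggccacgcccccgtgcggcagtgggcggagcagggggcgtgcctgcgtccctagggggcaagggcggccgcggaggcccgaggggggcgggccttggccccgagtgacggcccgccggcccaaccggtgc
Uso1: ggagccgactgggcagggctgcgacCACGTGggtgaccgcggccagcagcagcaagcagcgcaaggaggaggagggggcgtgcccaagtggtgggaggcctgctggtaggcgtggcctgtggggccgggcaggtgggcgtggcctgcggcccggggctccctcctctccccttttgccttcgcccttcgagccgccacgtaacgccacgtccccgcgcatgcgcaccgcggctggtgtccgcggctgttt
Bet1: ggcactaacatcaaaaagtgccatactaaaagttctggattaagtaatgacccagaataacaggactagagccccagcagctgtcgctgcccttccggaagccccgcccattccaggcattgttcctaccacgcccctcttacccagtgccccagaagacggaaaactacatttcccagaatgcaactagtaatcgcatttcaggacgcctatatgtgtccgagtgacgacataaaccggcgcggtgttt
Hspa5: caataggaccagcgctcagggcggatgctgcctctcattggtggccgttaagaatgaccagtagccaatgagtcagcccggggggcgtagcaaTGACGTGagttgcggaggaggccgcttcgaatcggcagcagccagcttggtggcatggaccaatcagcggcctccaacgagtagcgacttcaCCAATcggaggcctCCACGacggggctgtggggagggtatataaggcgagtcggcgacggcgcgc

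The next question was what became of these rhythms after the lesion of the central clock. In SCNx, 0 of the 56 genes passed (0% of all genes tested) in edgeR's quasi-likelihood test. An unadjusted p under 0.05 was given to 11 of the 56, or 19.6%, against 14.8% of all genes. The smallest values belonged to Lman2, with an amplitude in SCNx of 0.11 ± 0.029 (SE, n = 12) and an adjusted p of 0.192, and to the p24 gene Tmed3 and the receptor Ergic1, both with an adjusted p of 0.204 in the edgeR fit.

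Lman2 was the 1 gene of the 56 whose rhythm differed between Ctrl and SCNx, with an adjusted p of 0.0268 in the edgeR test of the difference, which called 2.12% of all genes. That test takes amplitude and timing together and does not separate them. The fitted peak of Lman2 was at 20.8 ± 0.50 h in Ctrl and at 16.6 ± 1.0 h in SCNx (SE, n = 12 each), where a rhythm did not pass. In SCNx its level was lowest at 168.5 CPM (CT32), had a median of 195.5 CPM and was highest at 218.5 CPM (CT40). Of the 12 Ctrl values 6 lay above the highest SCNx value, those of CT0, CT16, CT20, CT24, CT40 and CT44, which are the hours of the Ctrl peak. The call was lost in 5 of 32 other fits: without SCNx CT24, CT36 or CT44, where the adjusted p was 0.0538, 0.0529 and 0.0527, without Ctrl CT16 and SCNx CT0 together, at 0.0574, and with no minimum level, at 0.116. Next in order came Preb, whose amplitude was 0.19 ± 0.017 in Ctrl and 0.084 ± 0.028 in SCNx (SE, n = 12 each), with an adjusted p of 0.241, and Sec24a, at 0.284 in the same edgeR test. For Copg2, Uso1 and Bet1 the amplitudes in SCNx were 0.051, 0.074 and 0.069, and the adjusted p-values of the difference 0.393, 0.565 and 0.613 (edgeR), so that a difference was not shown.

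Fitted peaks in SCNx gathered in part of the day, although no single gene was called. Of the 56 genes 35 (62.5%) had a fitted SCNx peak between 15 and 20 h, against 25.7% of all genes tested. In Ctrl 13 of the 56 (23.2%) did, against 19.7% of all genes. The hours from 15 to 20 were not fixed in the plan of the tests, and the contrast with Ctrl depends on them. In a wider window, from 14 to 24 h, 29 of the 56 (51.8%) had a fitted Ctrl peak, against 42.4% of all genes. SCNx peaks were not counted in that wider window. The p24 and receptor genes made up 16 of the 35. Other lists gathered too: 11 of 12 ER chaperones and 10 of 10 epithelial markers had a fitted SCNx peak between 15 and 20 h. This gathering leaned on 1 library. SCNx CT32 held the lowest SCNx value for 35 of the 56 genes, against 28.1% of all genes, and without it 17 of the 56 (30.4%) peaked between 15 and 20 h, against 18.1% of all genes. The numbers without it were 11 of 12 for the chaperones and 1 of 10 for the epithelial markers. Without any other single SCNx library the number was 30 to 37.

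Levels were then compared between the groups over all times. None of the 56 genes was called at an adjusted p under 0.05 or under 0.25, the threshold of the study (0% of all genes tested at either, edgeR's quasi-likelihood test). The study itself used DESeq2 with another minimum level and did call genes at both thresholds. Among those under 0.25 it reported enriched terms of the ER and the Golgi. At an unadjusted p under 0.05, 11 of the 56 were lower in SCNx, where 4.58% of all genes were, and 1 was higher, where 4.78% of all genes were. The 11 were not spread over the roles: 4 were p24 genes (Tmed2, Tmed3, Tmed9 and Tmed10), 6 were receptors (Ergic1, Ergic3, Kdelr1, Kdelr2, Kdelr3 and Surf4), and the last was Yipf5, a membrane protein of the early Golgi. All 8 p24 genes and all 10 receptors had a fitted value below that of Ctrl, with a median log2 difference of -0.11 over these 18, while the median over all genes tested was 0.011. Among the other 38 genes 13 had a lower fitted value, and the median was 0.012. The share with a lower fitted value was 43.5% over all genes tested.

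The smallest p-values among the lower genes were those of Tmed9, Ergic1 and Kdelr3. Tmed9 is a p24 protein. Its level in Ctrl was lowest at 63.9 CPM (CT12), had a median of 71.0 CPM and was highest at 76.99 CPM (CT0), and the SCNx values ran from 53.3 CPM (CT32) over 62.6 CPM to 73.4 CPM (CT36). The ranges overlapped, and 8 of the 12 SCNx values were below the lowest of Ctrl. The log2 difference was -0.15 ± 0.042 (SE, n = 12 each), with an adjusted p of 0.366 in the edgeR fit.

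Ergic1 ran from 94.3 to 104.6 CPM in Ctrl, with a median of 98.7 CPM, and from 84.1 to 104.8 CPM in SCNx, with a median of 89.7 CPM, and 9 of 12 SCNx values were below the lowest of Ctrl. Its log2 difference was -0.12 ± 0.034 (SE, n = 12 each, adjusted p of 0.366, edgeR). Kdelr3, a KDEL receptor expressed at a low level, ran from 5.57 to 6.80 CPM in Ctrl, with a median of 6.23 CPM, and from 4.53 to 6.79 CPM in SCNx, with a median of 4.98 CPM, again with 9 of 12 values below the lowest of Ctrl. The log2 difference of Kdelr3 was -0.22 ± 0.065 (SE, n = 12 each, adjusted p of 0.366, edgeR), the largest in size among the 56 genes. In the annotation at hand exons of Ergic1 overlap Dusp1 and those of Kdelr3 overlap Ddx17 on the opposite strand.

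The smallest p-values among the higher genes were those of Sec16a, Sec23ip and Gbf1. Sec16a, the scaffold of ER exit sites, ranged from 96.5 over a median of 108.8 to 120.5 CPM in Ctrl and from 97.0 over 121.7 to 135.7 CPM in SCNx. Its log2 difference was 0.11 ± 0.049 (SE, n = 12 each), with an adjusted p of 0.495 in the edgeR fit. Sec23ip and Gbf1 followed with differences of 0.059 ± 0.033 and 0.077 ± 0.046 (SE, n = 12 each) and adjusted p-values of 0.587 and 0.619 in the edgeR fit. For the COPII coat 5 of 16 genes had a lower fitted value in SCNx, with a median of 0.025, and for the COPI coat 2 of 9, with a median of 0.011. Over all genes tested 43.5% had a lower fitted value, and the median was also 0.011. None of the differences of these coat and ARF genes was called.

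The lower values of the p24 and receptor genes were read beside other measures, and whether these vary together across libraries was not tested. Averaged over the 10 receptors, the level was below the Ctrl median in 12 of 12 SCNx libraries and below the lowest Ctrl library in 7, and the lowest average, -0.33 on the log2 scale relative to the Ctrl mean, was in SCNx CT32. For the p24 family 9 of 12 SCNx libraries were below the Ctrl median and 7 below the lowest Ctrl library. The p24 average was above the Ctrl mean at SCNx CT16 (0.055), CT20 (0.032) and CT36 (0.022). Of the 10 epithelial markers 9 also had a lower fitted value in SCNx, with a median log2 difference of -0.090, and 2 had an unadjusted p under 0.05 (Igf2 and Igfbp2). Of the 12 ER chaperones 11 had a lower fitted value, with a median of -0.094, where 43.5% of all genes tested had one. Markers of macrophages and endothelium had higher fitted values in SCNx. All 5 of macrophages did, with a median log2 difference of 0.30 and 3 at an unadjusted p under 0.05 (Ptprc, Aif1 and Cd68). All 4 of endothelium did, with a median of 0.23 and none at that p. Other lists were mixed: 3 of 5 fibroblast markers (median -0.023) and 2 of 3 oligodendrocyte markers (median -0.024) had a lower fitted value. Of neuronal markers 2 of 5 were lower, of astrocyte markers 1 of 5 and of hepatocyte markers 1 of 10. The part of the cell composition of the tissue in the result was not tested. Without SCNx CT32 all 18 p24 and receptor genes still had a lower fitted value, 9 at an unadjusted p under 0.05, and their median was -0.089. Without Ctrl CT4 and SCNx CT32 together the median was -0.097, and with circadian time as a block it was -0.12. Without Ctrl CT16 and SCNx CT0 together 17 of the 18 had a lower fitted value, 9 at an unadjusted p under 0.05, and the median was -0.11.

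**Figure D3:**
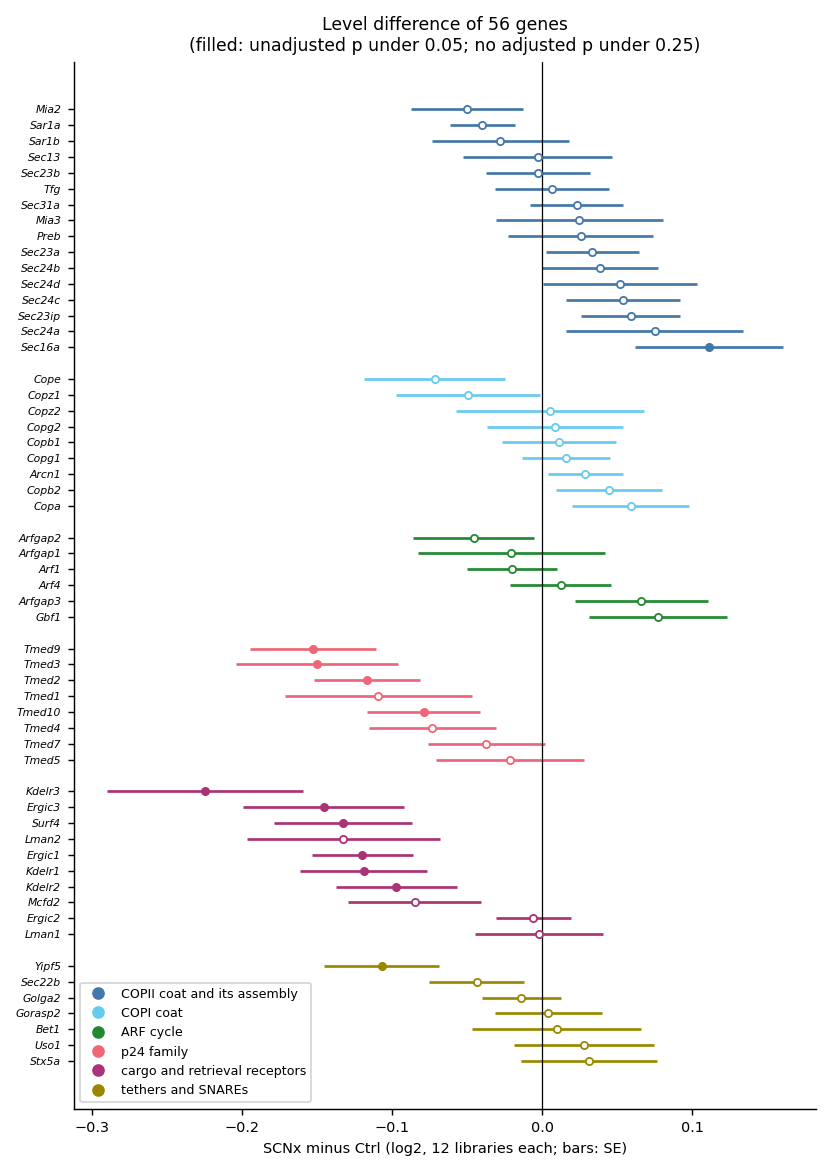
Log2 difference in level, SCNx minus Ctrl over 12 libraries each (horizontal axis), for each of the 56 genes by role, with bars for the SE. Filled points have an unadjusted p under 0.05, and no adjusted p is under 0.25. All 18 p24 and receptor genes lie left of 0, with Kdelr3 farthest at -0.22, and the largest positive value is Sec16a at 0.11.

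**Figure D4:**
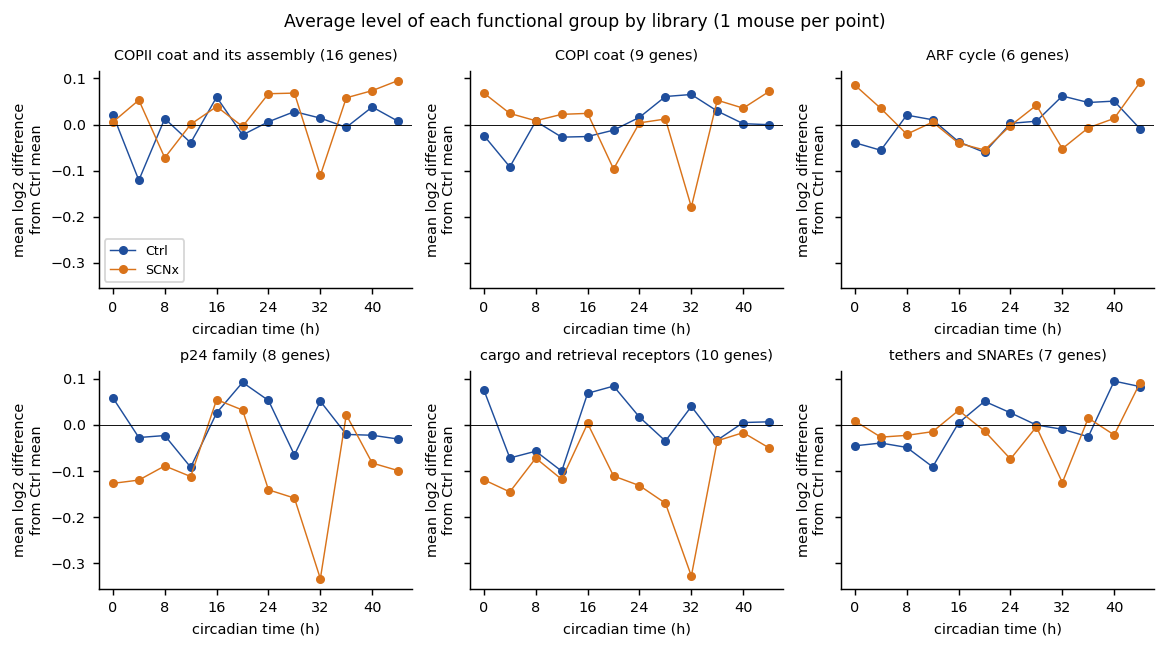
Average log2 level of each role relative to its Ctrl mean (vertical axes) against circadian time in h, 1 mouse per point, blue for Ctrl and orange for SCNx. SCNx CT32 is the lowest point of the p24 and receptor panels, both at -0.33. It is also the lowest SCNx point of the COPI coat (-0.18), the tethers and SNAREs (-0.13) and the COPII coat (-0.11).

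Further genes of ER-Golgi traffic, listed by family, were read beside the 56. Of 51 such genes 48 passed the minimum level, and 5 of these (10.4%) were rhythmic in Ctrl in the edgeR fit. Lman2l, a lectin of the same family as Lman2, ran in Ctrl from 50.7 CPM (CT8) over 64.2 CPM to 80.4 CPM (CT20), with an amplitude of 0.31 ± 0.031 (SE, n = 12), a fitted peak at 20.1 h and an adjusted p of 3.32e-05. Its rhythm, too, differed between the groups (adjusted p of 0.0218, edgeR), with an amplitude in SCNx of 0.11 and a fitted SCNx peak at 16.6 h.

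The other 4 were the SNARE Stx18 (fitted peak at 23.02 h, adjusted p of 0.00948), the tether gene Zw10 (19.6 h, 0.0294) and the COG tether genes Cog2 (6.49 h, 0.0101) and Cog6 (20.8 h, 0.000831), all from the same edgeR test. None of the 14 TRAPP genes passed, and their amplitudes did not exceed 0.11. Among the 48 genes 0 were called for level, 0 at an unadjusted p under 0.05 were lower in SCNx, and 1, the giant Golgi tether Golgb1, was higher, with a log2 difference of 0.21 and an adjusted p of 0.495 in the edgeR fit. Of these 48 genes 16 had a lower fitted value in SCNx, with a median of 0.013, beside the 11 of 12 ER chaperones given above. Over all genes tested the share was 43.5%.

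The KO mice offered 1 library by day and 1 by night, which allows no test. Arntl, the deleted gene, was at 11.1 CPM at ZT7 (184 counts) and 9.06 CPM at ZT18 (169 counts), while in Ctrl it ran from 2.01 CPM (CT36) to 39.4 CPM (CT0). Counts over the whole gene do not show whether the deleted exon is gone. Neuronal markers summed to 237 and 325 CPM and epithelial markers to 92509 and 81257 CPM, the former above all Ctrl libraries but CT4 and the latter below every Ctrl library, though by another kit. Night minus day was computed as a difference of log2 CPM, in Ctrl and SCNx from CT16, CT20, CT40 and CT44 against CT8 and CT32. The KO table was normalised by itself, so that the KO levels set beside Ctrl here are approximate, and the differences were taken within each table.

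In KO 1 of the 56 genes (1.79%) moved by more than 0.5 on this scale, against 18.1% of all genes tested. It was Sar1b, the GTPase that intestinal cells need to export large lipoproteins, with 653 counts at ZT7 and 459 at ZT18 and a difference of -0.68. Its difference in Ctrl was 0.067. The KO differences of the 56 genes ran from that value to 0.46 for Kdelr3, which rests on 30 and 47 counts, and 35 of the 56 (62.5%) were lower at night, against 49.3% of all genes. In Ctrl 29 of the 56 (51.8%) were higher at night, against 50.5% of all genes. These shares, too, were not compared with genes of like level, and the 56 genes were more abundant than most.

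The genes rhythmic in Ctrl gave these night minus day differences. Lman2 stood at 0.36 in Ctrl, 0.23 in SCNx and -0.055 in KO (89.2 CPM at ZT7 and 85.9 CPM at ZT18). Preb stood at 0.36, 0.14 and 0.13. Uso1 stood at 0.22, 0.23 and -0.20, and Bet1 at 0.30, 0.079 and -0.38. Copg2, which peaks by day in Ctrl, stood at -0.28, -0.040 and -0.38. With 1 mouse per time in KO, a difference between KO and Ctrl cannot be told apart from one between single mice, light regimes or methods.

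In SCNx 52 of the 56 genes were higher at night, against 52.3% of all genes. This count, too, depended on the day libraries: with CT8 alone as the day it was 35 of 56 (49.0% of all genes), and with CT32 alone, the library low in epithelial markers, it was 47 (51.1% of all genes).

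**Figure D5:**
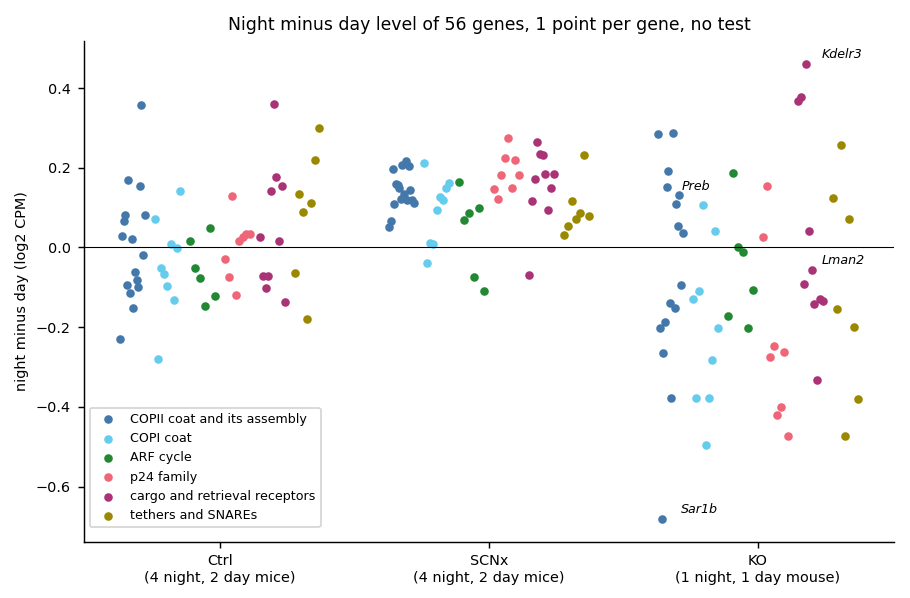
Night minus day in log2 CPM (vertical axis) for the 56 genes in Ctrl, SCNx and KO, 1 point per gene, coloured by role. Ctrl and SCNx use 4 night and 2 day mice each and KO 1 and 1. Most SCNx points lie above 0, and the lowest KO point is Sar1b at -0.68.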

How the data were processed

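Total RNA of ChP from 12 Ctrl, 12 SCNx and 2 KO mice had been sequenced as single-end reads. The authors used the nf-core/rnaseq workflow with GRCm39 (the submitters' processing notes name STAR, Salmon 1.9.0, StringTie 2.2.1, SAMtools 1.16.1 and cutadapt 3.4) and deposited estimated counts per gene, not normalized, in separate tables for Ctrl with SCNx and for KO. These values were rounded here, scaled by TMM (edgeR 4.0.16, R 4.3.3) and given as CPM. Testing was limited to genes whose mean CPM reached 1 in both groups. A mean, 24 h cosine and 24 h sine per group were fitted to the 24 libraries, and rhythms, their difference and, in a model of group means, levels were tested with edgeR's quasi-likelihood F test and Benjamini-Hochberg adjustment over all genes tested. Each of these libraries held 38751162 or more counts. The part of depth in the spread of genes at a low level, such as Kdelr3, was not tested. SE of levels and differences come from the spread between mice, which for levels includes the different times at which they were killed.

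KO was described without a test, as log2 CPM with a prior count of 1. A rank test of the eJTK type used 132 templates and 1000000 random orders (Python 3.11.15, numpy 2.4.6, pandas 2.3.3, scipy 1.17.1). Figures were drawn with matplotlib 3.10.9. Alternatives were DESeq2 1.42.0, its size factors, limma-trend (limma 3.58.1), other minimum levels, a linear trend, separate fits per group, a block for circadian time and leaving out libraries. The fits were tested on simulated data. Members, lists and motifs were chosen with earlier results of these data known. Values are given in full for members rhythmic in Ctrl, for the 3 that ranked first by p in each of the other tests (rhythm in SCNx, difference of the rhythm, level in each direction), and for the 3 highest and lowest per length. Of other lists the genes called and at most 3 more were named. In GENCODE vM21, 19 of the 56 genes have exons that overlap a gene on the opposite strand, and whether the counting used the strand is not given in the sources used here.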

Additional observations from a re-analysis of the deposited data

Results flagged for a closer look

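A difference of the 24 h rhythm between Ctrl and SCNx passed the edgeR test after Benjamini-Hochberg adjustment for Lman2 (adjusted p of 0.0268) and for its relative Lman2l (0.0218). Both fitted curves were flatter in SCNx and also peaked earlier there, each at 16.6 h, against 20.8 h for Lman2 and 20.1 h for Lman2l in Ctrl. The same edgeR test was passed by 6 of the 12 ER chaperones: Calr (adjusted p of 0.00419), Pdia6 (0.00551), Hsp90b1 (0.0111), Sdf2l1 (0.0157), Pdia3 (0.0179) and Dnajb11 (0.0198). It was also passed by the transcription factor Xbp1 (0.0316). The clock genes listed for reference passed it as well, with adjusted p-values of 0.000384 for Arntl, 0.000229 for Nr1d1, 0.000686 for Dbp, 0.000285 for Per2 and 0.000498 for Ciart in the same edgeR fit. Of all genes tested 2.12% passed.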

How the results depend on the processing

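The number of the 56 genes rhythmic in Ctrl was 5, fell to 2 with no minimum level (Lman2 and Preb) and to 3 with the rank test at Q under 0.05 (Copg2, Lman2 and Preb), where 6.74% of all genes passed, and was 3 to 7 when single libraries were left out. At Q under 0.4, which the study asked of several algorithms together, so that a single rank test does not repeat its criterion, the rank test passed 25 of the 56, against 50.6% of all genes. The number with a rhythm that differed between the groups was 1, and 0 with no minimum level and without Ctrl CT16 and SCNx CT0, and 0 to 1 without single libraries. The cause was not tested. At an adjusted p under 0.05, the counts rhythmic in SCNx and called for level stayed at 0 without any single library. At 0.25, the threshold of the study for levels, the count for level did not stay at 0. Without single libraries the lowest adjusted p for level (edgeR) was 0.143 for Ergic1, 0.176 for Tmed9 and 0.235 for Kdelr3. Over all 33 other fits, by edgeR, DESeq2 or limma-trend, the lowest was 0.162 for Tmed9 and 0.184 for Kdelr3. Crossing 0.25 was thus not limited to the fits without a single library. The p24 and receptor genes lower in SCNx at an unadjusted p under 0.05 numbered 9 to 13 without single libraries. Choosing each SCNx library in turn to be left out of the peak times, and taking 1 day library for the night minus day differences, was decided after seeing the data. The part of depth in these results was not tested, and the number of mice, 1 per time, limits the precision of the amplitudes.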
